A study of Mus musculus with 6 samples.

Results

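Caspases are proteases that cut their targets after aspartate and carry out apoptosis, and death receptors are the surface proteins that switch some of them on from outside the cell. The 8 genes described here are Tnfrsf10b and Fas, which encode death receptors, Cflar, which encodes the caspase-8 regulator c-FLIP, the initiator caspase genes Casp8, Casp9 and Casp2, the rodent ER-linked caspase gene Casp12 and the executioner caspase gene Casp6. They were taken by gene symbol from the 54532 rows of a deposited table of gene counts, and each symbol matched 1 row. Of the 8 genes, 7 had enough reads to be tested, and Fas had no read in any library.

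The libraries were bulk RNA-seq of NIT-1 cells, an insulinoma line of the mouse that serves as a beta-cell model. In 3 libraries, called EV_Tm, the cells were given hucMSC-EVs, which are extracellular vesicles shed by mesenchymal stem cells of the human umbilical cord, for 16 h and then Tm for 8 h. In the other 3, called PBS_Tm, PBS took the place of the vesicles and Tm followed in the same way. Tm is read here as tunicamycin, which blocks N-glycosylation of new proteins and so causes stress of the endoplasmic reticulum (ER). One label of the PBS_Tm samples says that none was treated, while their titles and the series' design put them in the Tm arm, which was followed. Read this way, none of the 6 libraries of the series came from cells that never received Tm. Every difference is thus one of vesicles against PBS under Tm.

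In the extrinsic pathway, a ligand such as TRAIL or Fas ligand gathers its receptor, the adaptor FADD binds the receptor's tail, and caspase-8 is activated on it by pairing with itself. c-FLIP resembles caspase-8 but lacks its protease activity, and it joins that complex in competition with caspase-8. In the intrinsic pathway, cytochrome c released from mitochondria assembles APAF1 and caspase-9. The extrinsic and the intrinsic pathway both end in the executioner caspases. Caspase-2 is activated on a separate platform built by PIDD1 and CRADD. Under lasting ER stress the transcription factor CHOP is known to raise the TRAIL receptor DR5, the product of Tnfrsf10b, and caspase-12 in rodents is located at the ER.

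The sequences that set c-FLIP apart from the caspases are shown first. Each line is a stretch of coding sequence (GENCODE M21 transcripts, build GRCm38) around the codon of the catalytic cysteine, which is in capitals; for Cflar, the capitals mark the codon at the place of the cysteine of caspase-8.
Casp8: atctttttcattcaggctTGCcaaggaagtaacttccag
Casp9: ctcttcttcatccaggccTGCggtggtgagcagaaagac
Casp2: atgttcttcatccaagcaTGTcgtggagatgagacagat
Casp12: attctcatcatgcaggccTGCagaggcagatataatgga
Casp6: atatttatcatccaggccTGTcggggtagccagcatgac
Cflar: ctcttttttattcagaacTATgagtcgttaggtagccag
The 5 caspases had TGC or TGT, both cysteine codons, at codon 382 of 500 in Casp8, 325 of 454 in Casp9, 320 of 452 in Casp2, 298 of 419 in Casp12 and 146 of 276 in Casp6. Cflar had TAT, a tyrosine codon, at codon 365 of 484. This position came from the best ungapped match of both proteins near the cysteine, in which 15 of 19 residues (78.9%) were identical and which ended 2 codons before it.

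The death receptor gene Tnfrsf10b and the caspase-8 regulator Cflar fell in EV_Tm, the initiators Casp8 and Casp2 and the executioner Casp6 rose, and Casp9 and Casp12 did not pass the test. So 5 of the 7 tested genes passed, 3 higher and 2 lower, by edgeR's quasi-likelihood test at a Benjamini-Hochberg adjusted p under 0.05 over all 16844 genes tested. Among all of these genes 47.4% passed, 22.6% higher and 24.7% lower in EV_Tm, so that passing is common in this comparison. The share was larger among better expressed genes. With a filter of 1 CPM in 3 libraries, 55.6% of 13951 genes passed, 27.2% higher and 28.4% lower. These 5 genes were also those whose groups did not overlap, with 3 of 7 higher in EV_Tm against 26.6% of all genes, 2 of 7 lower against 27.9%, and 54.5% of all genes in either direction. Changes were moderate: the median absolute log2 fold change was 0.53 over the 7 genes and 0.28 over all genes, none of the 7 reached a 2-fold change, and 5.97% of all genes passed with one.

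**Figure D1:**
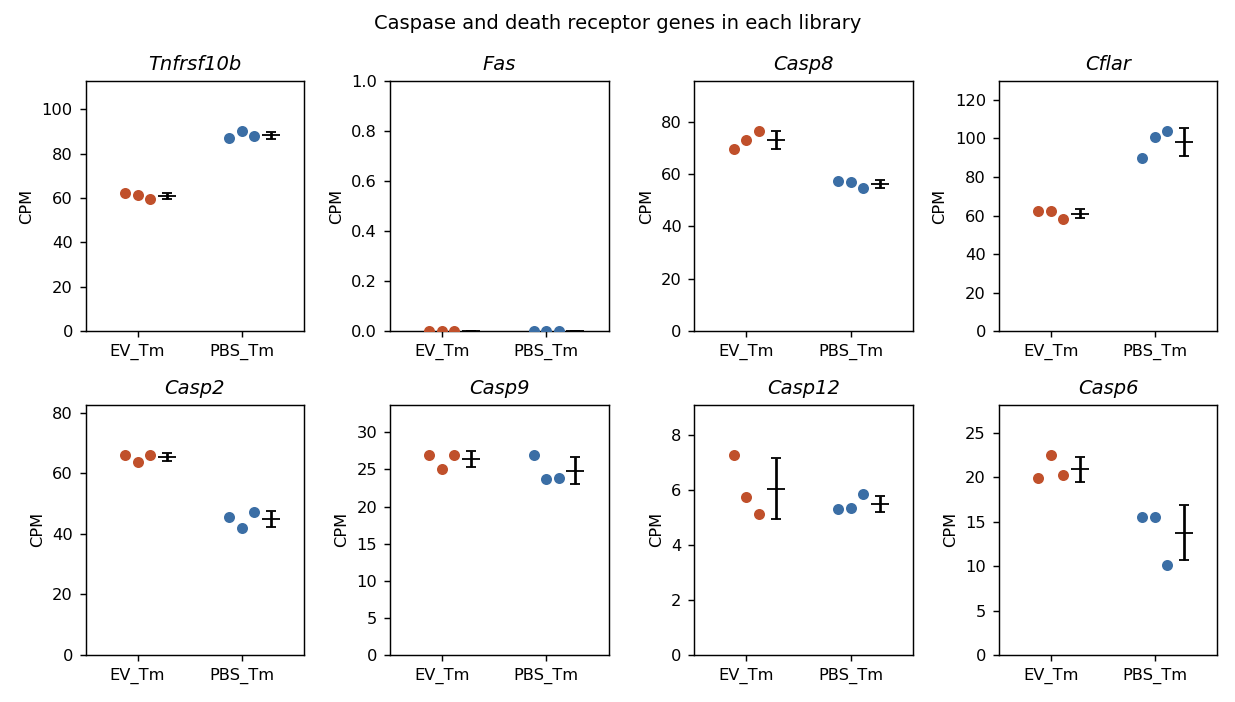
Normalised read counts (CPM) of the 8 genes in each library, EV_Tm left of PBS_Tm, with 1 point per library and the mean and SD of 3 libraries beside the points. The groups lie apart for Tnfrsf10b, Cflar, Casp8, Casp2 and Casp6 and overlap for Casp9 and Casp12, and all 6 libraries are at 0 for Fas.

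The libraries held 28654248 to 32550268 counts, and levels are given as CPM, normalised read counts that are scaled to library size with the trimmed mean of M values (TMM). The labels do not say that the 3 samples of a group were separate cultures, so p-values measure only how these samples vary among themselves, and that variation may be technical. In bulk RNA, fewer cells of a type and less RNA per cell cannot be told apart. The beta-cell identity of the line was not visible in the counts: of 12 beta-cell markers, 8 had at most 3 counts in every library, Ins2, Iapp, Pdx1, Nkx6-1, Slc30a8, G6pc2 and Neurod1 were at 0 in all, Ins1 had at most 1 count, and their summed level was 0.252 to 0.628 CPM in EV_Tm and 0.154 to 0.279 CPM in PBS_Tm. Of 25 markers of fibroblasts, leukocytes, endothelium, exocrine pancreas and neurons, 11 were tested, 4 rose and 3 fell, where 22.6% of all genes tested rose and 24.7% fell. The summed level of the 25 was 231 to 238 CPM in EV_Tm and 206 to 226 CPM in PBS_Tm. Kdr, Cpa1, Prss2, Krt19, Th, Dbh, Gap43 and Stmn2 were at 0 in all libraries. The highest of the 25 were Sox9, at 80.7 CPM in EV_Tm and 62.4 CPM in PBS_Tm, and Tubb3, at 65.6 and 75.0 CPM. Cela1, at 32.1 and 27.1 CPM, and Pecam1, at 24.5 and 28.5 CPM, came next. The part of the markers with counts in the results below was not tested.

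Tnfrsf10b encodes DR5, the receptor of the death ligand TRAIL and the only TRAIL death receptor of the mouse. The gene (ENSMUSG00000022074, chr14:69767472-69784411, forward strand) had 62.2, 61.6 and 59.4 CPM in EV_Tm, against 87.0, 90.2 and 87.8 CPM in PBS_Tm. All 3 EV_Tm libraries lay below all 3 PBS_Tm libraries, and the values within each group were close to each other. The mean was 61.0 ± 1.46 CPM in EV_Tm and 88.3 ± 1.70 CPM in PBS_Tm (SD, n = 3 each), 1.45-fold lower in EV_Tm. The log2 fold change was -0.53 ± 0.05 (SE, 95% confidence interval -0.64 to -0.43, edgeR adjusted p = 2.96e-09). Of all tested genes, 24.4% had a larger absolute log2 fold change.

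Fas, the receptor of Fas ligand (ENSMUSG00000024778, chr19:34290659-34327770, forward strand), had 0 counts in all 6 libraries. A count of 0 allows up to 3 counts in a library, which is at most 0.105 CPM, counting error only. A difference between the groups in Fas was therefore not detectable at this depth.

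Cflar encodes c-FLIP, whose long form can pair with caspase-8 and whose short forms block its activation, and the counts per gene do not separate these forms. The gene (ENSMUSG00000026031, chr1:58711508-58758884, forward strand) had 62.3, 62.2 and 58.2 CPM in EV_Tm, against 90.0, 101 and 104 CPM in PBS_Tm. It was the gene with the most negative change of the 7 tested, with every EV_Tm library below every PBS_Tm library. Means were 60.9 ± 2.35 CPM in EV_Tm and 98.1 ± 7.20 CPM in PBS_Tm (SD, n = 3 each), 1.61-fold lower in EV_Tm. The log2 fold change was -0.69 ± 0.06 (SE, 95% confidence interval -0.81 to -0.57, edgeR adjusted p = 2.44e-10), and 15.9% of all tested genes had a larger absolute change.

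Casp8, the initiator caspase of death receptors, lies 36489 bases from Cflar on the same chromosome and strand (ENSMUSG00000026029, chr1:58795374-58847503). It had 69.5, 72.9 and 76.4 CPM in EV_Tm, against 57.2, 57.0 and 54.5 CPM in PBS_Tm. The neighbours thus moved in opposite directions, with each EV_Tm value of Casp8 above each PBS_Tm value. Casp8 averaged 72.9 ± 3.42 CPM in EV_Tm and 56.2 ± 1.52 CPM in PBS_Tm (SD, n = 3 each), 1.30-fold higher in EV_Tm, with a log2 fold change of 0.38 ± 0.05 (SE, 95% confidence interval 0.26 to 0.49, edgeR adjusted p = 3.38e-06). A short gene on the same strand, Gm37760, overlaps Casp8 and had at most 32 counts in a library, where Casp8 had 1720 to 2460.

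Because c-FLIP and caspase-8 compete for the same complex, their ratio was computed in each library. There were 0.896, 0.854 and 0.762 Cflar reads per Casp8 read in EV_Tm, against 1.57, 1.76 and 1.91 in PBS_Tm. Cflar reads were thus fewer than Casp8 reads in every EV_Tm library and more in every PBS_Tm library. Read numbers also depend on gene length, 12669 bases for Cflar and 2893 bases for Casp8 in the deposited model. The crossing therefore does not show which transcript was in excess. The mean ratio was 0.837 ± 0.0685 in EV_Tm and 1.75 ± 0.167 in PBS_Tm (SD, n = 3 each), and per length of the deposited gene model it was 0.191 ± 0.0156 in EV_Tm and 0.399 ± 0.0381 in PBS_Tm. Per length, Cflar was thus below Casp8 in both groups. The difference of the log2 ratios was -1.06, a 2.09-fold lower ratio in EV_Tm. A two-sided exact permutation test over the libraries gave p = 0.1, the smallest it can give with 3 libraries against 3. With Cflar lower and Casp8 higher in every EV_Tm library, the ratio had to separate the groups. The test therefore adds nothing to the changes of both genes. The ratio does not depend on library size, and it compares transcripts, not proteins.

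**Figure D2:**
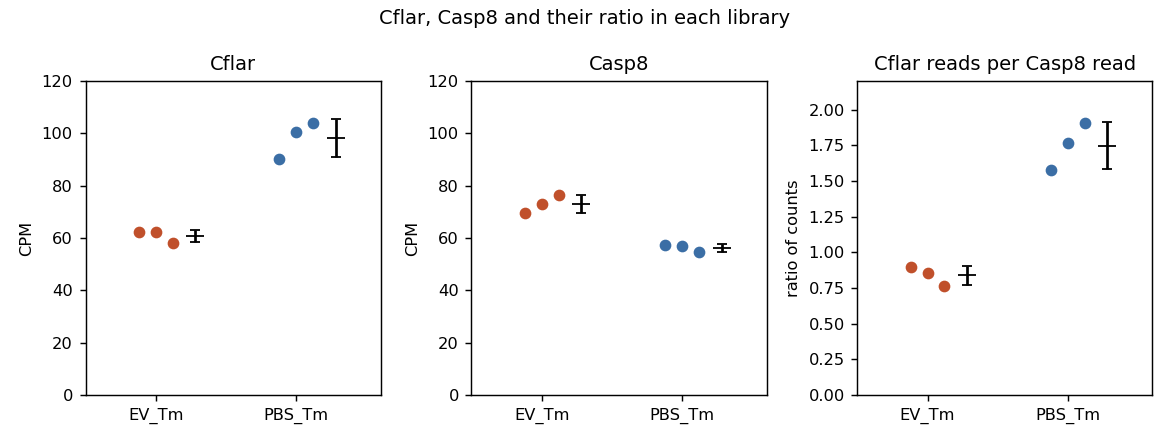
CPM of Cflar and of Casp8, and Cflar reads per Casp8 read, in each library with the mean and SD of 3 libraries. EV_Tm libraries lie at 0.762 to 0.896 Cflar reads per Casp8 read and PBS_Tm libraries at 1.57 to 1.91. Reads are not divided by gene length here, and per length Cflar is below Casp8 in both groups.

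Casp2, an initiator caspase activated on the PIDDosome and known for its role when cells divide abnormally, rose in EV_Tm (ENSMUSG00000029863, chr6:42264985-42282508, forward strand). It had 66.1, 63.9 and 65.9 CPM in EV_Tm, against 45.4, 41.9 and 47.1 CPM in PBS_Tm. The lowest EV_Tm library lay well above the highest PBS_Tm library. Means were 65.3 ± 1.24 CPM in EV_Tm and 44.8 ± 2.65 CPM in PBS_Tm (SD, n = 3 each), 1.46-fold higher in EV_Tm, with a log2 fold change of 0.54 ± 0.06 (SE, 95% confidence interval 0.42 to 0.66, edgeR adjusted p = 2.99e-08). A small nucleolar RNA gene on the same strand, Gm25108, overlaps Casp2 and had at most 14 counts in a library.

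The upstream sequences of 7 of the 8 genes, 250 bases before the RefSeq start in GRCm38.p6, were searched on both strands for 6 motifs. These were the ER stress element, held by 0.113% of 32851 promoters of this length, the core TGACGTG of the XBP1 and ATF6 element (1.65%), the amino acid response element TGATGNAA (3.45%), an NF-kB motif (1.41%), an E2F motif TTTCCCGC (0.895%) and the C/EBP core TGCAAT (7.32%). The search found 1 match in the 7 windows, the E2F letters in Casp2, at position -97 from its start. Tnfrsf10b had no entry among the promoters used, so its upstream sequence was not searched for any of the motifs. A match is a description of the letters, and no match says only that they are not in this window. The window of Casp8 (chr1:58802252-58802501) lies inside the deposited gene, which starts at base 58795374. The bases before that start were not searched. The window of Casp2 (chr6:42264735-42264984, forward strand), the only one with a match, reads as follows, with the match in capitals.
Casp2 upstream: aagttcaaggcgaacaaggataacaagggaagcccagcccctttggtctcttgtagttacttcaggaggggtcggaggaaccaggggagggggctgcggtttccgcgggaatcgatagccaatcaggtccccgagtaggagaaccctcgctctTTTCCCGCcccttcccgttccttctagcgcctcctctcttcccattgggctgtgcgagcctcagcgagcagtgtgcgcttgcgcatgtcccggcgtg

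Casp9, the initiator caspase of the apoptosome, did not pass the test (ENSMUSG00000028914, chr4:141793612-141815976, forward strand). It had 27.0, 25.1 and 27.0 CPM in EV_Tm, against 26.9, 23.7 and 23.8 CPM in PBS_Tm. The groups overlapped. The log2 fold change was 0.09 ± 0.08 (SE, 95% confidence interval -0.08 to 0.25, edgeR adjusted p = 0.394). The pancreatic protease genes Cela2a and Ctrc overlap Casp9 and had at most 2 counts and 0 counts in a library.

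Casp12, the rodent caspase located at the ER, was the lowest of the 7 detected genes and did not pass the test either (ENSMUSG00000025887, chr9:5345430-5373032, forward strand). It had 7.29, 5.76 and 5.12 CPM in EV_Tm, against 5.31, 5.37 and 5.85 CPM in PBS_Tm. EV_Tm replicate 1 was the highest of the 6 libraries and EV_Tm replicate 3 the lowest. The log2 fold change was 0.14 ± 0.15 (SE, 95% confidence interval -0.18 to 0.45, edgeR adjusted p = 0.499). It was -0.024 with EV_Tm replicate 1 left out (edgeR adjusted p = 0.926). The interval covers no change as well as a moderate rise, so the data do not show that Casp12 was alike in the groups.

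Casp6, the executioner that cuts nuclear lamins, had the largest rise of the 7 tested genes with all libraries in the fit (ENSMUSG00000027997, chr3:129901425-129914103, forward strand). It had 19.9, 22.6 and 20.3 CPM in EV_Tm, against 15.6, 15.6 and 10.2 CPM in PBS_Tm. The groups did not overlap, and PBS_Tm replicate 3 stood below the other PBS_Tm libraries. Means were 20.9 ± 1.42 CPM in EV_Tm and 13.8 ± 3.11 CPM in PBS_Tm (SD, n = 3 each), 1.52-fold higher in EV_Tm, with a log2 fold change of 0.60 ± 0.12 (SE, 95% confidence interval 0.36 to 0.85, edgeR adjusted p = 0.00017). Without PBS_Tm replicate 3 the log2 fold change was 0.42 (edgeR adjusted p = 0.000754), below the 0.58 of Casp2 in that fit. Casp6 was also below Casp2 without EV_Tm replicate 2, at log2 fold changes of 0.54 and 0.55, so the order of these genes rests on single libraries.

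**Figure D3:**
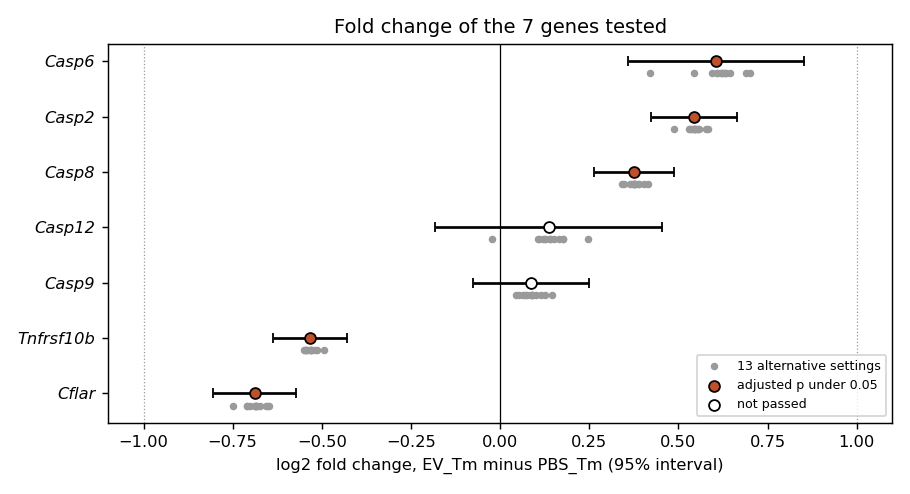
Log2 fold change of the 7 tested genes, EV_Tm minus PBS_Tm, with 95% confidence intervals from the edgeR fit of 3 libraries a group. Casp6, Casp2 and Casp8 lie above 0 and Tnfrsf10b and Cflar below it, while the intervals of Casp9 and Casp12 include 0.

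Levels of different genes were compared per length, as CPM per kilobase of the deposited gene length. In EV_Tm, Casp8 was highest at 25.2 ± 1.18 CPM per kb, followed by Tnfrsf10b at 11.2 ± 0.27, Casp2 at 9.25 ± 0.18, Casp9 at 5.07 ± 0.21, Cflar at 4.81 ± 0.19, Casp6 at 3.75 ± 0.26 and Casp12 at 1.58 ± 0.29 (SD, n = 3). The SD ranges of the neighbours Casp9 and Cflar overlapped, and those of the other neighbours did not. In PBS_Tm, Casp8 was again highest at 19.4 ± 0.53 CPM per kb, followed by Tnfrsf10b at 16.2 ± 0.31, Cflar at 7.75 ± 0.57, Casp2 at 6.35 ± 0.37, Casp9 at 4.78 ± 0.35, Casp6 at 2.47 ± 0.56 and Casp12 at 1.43 ± 0.08 (SD, n = 3). No SD ranges of neighbours overlapped here, and Cflar thus ranked 5 in EV_Tm and 3 in PBS_Tm. The deposited length counts all exons of a gene and exceeds the longest protein-coding transcript by unlike amounts. It is 2893 against 2585 bases for Casp8 and 5584 against 1456 bases for Casp6. With the longest protein-coding transcript instead, Tnfrsf10b at 27.8 CPM per kb exceeded Casp8 at 21.8 CPM per kb in PBS_Tm. Casp8 stayed highest in EV_Tm, at 28.2 against 19.2 CPM per kb for Tnfrsf10b. The order of Casp6 and Casp9 turned in both groups: by transcript length Casp6 was at 14.4 CPM per kb in EV_Tm and 9.46 in PBS_Tm, above Casp9 at 6.76 in EV_Tm and 6.37 in PBS_Tm. In EV_Tm, Casp6 then also lay above Cflar, at 9.27 CPM per kb, and Cflar above Casp9.

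**Figure D4:**
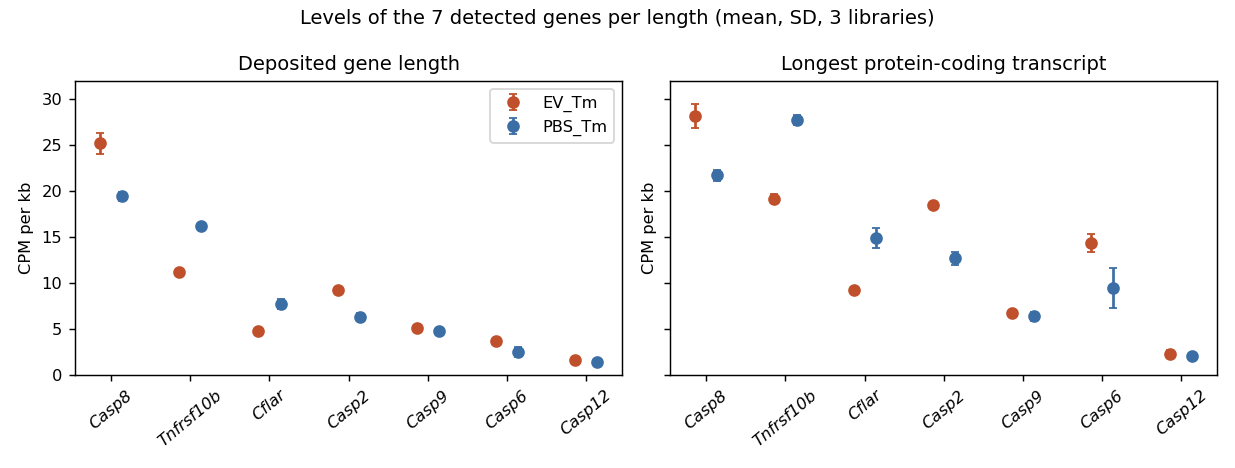
Mean level of the 7 detected genes in CPM per kb with the SD of 3 libraries, EV_Tm left of PBS_Tm, by deposited gene length in the left panel and by the longest protein-coding transcript in the right panel. Casp12 is lowest in both panels, while the order of Casp6 and Casp9 in both groups, of Casp8 and Tnfrsf10b in PBS_Tm, and of Cflar relative to Casp6 and Casp9 in EV_Tm differs between the panels.

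Likeness to each end of the range was measured over 12351 genes that averaged 1 log2 CPM or more. The genes whose centred log2 CPM over the 6 libraries lay nearest to Cflar were Slc25a24, Fam135a and Uchl5, at distances of 0.0678, 0.0801 and 0.105. Their log2 fold changes were -0.69, -0.66 and -0.66. The genes nearest to Casp6 were Nccrp1, Gm3756 and Il18bp, at distances of 0.208, 0.227 and 0.254, with log2 fold changes of 0.55, 0.44 and 0.66. These genes were picked by the distance, so fold changes like those of Cflar and Casp6 follow from the choice. The matches to Cflar were closer than those to Casp6. Cflar averaged 79.5 CPM over all libraries and Casp6 17.3 CPM, and whether read depth has a part in the distances was not tested. The distance describes these 6 libraries only.

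The other genes of these pathways were described by lists of 82 genes in all, of which 69 were tested, 19 rose, 26 fell and 24 did not pass. Of all genes tested, 47.4% passed, 22.6% higher and 24.7% lower, and the counts of every list are to be read beside these shares. The median log2 fold change was -0.05 over the 69 genes and 0.01 over all genes tested. Among the ligands, Tnfsf12, which encodes TWEAK, was the 1 gene of 7 with enough counts to be tested, and it did not pass (4.54 ± 0.512 CPM in EV_Tm and 3.54 ± 0.471 CPM in PBS_Tm, SD, n = 3 each; log2 fold change 0.36 ± 0.18, SE, edgeR adjusted p = 0.105). Tnf, Tnfsf15 and Tnfsf14 had 0 counts in all libraries. Tnfsf10, the gene of TRAIL, had 8, 0 and 2 counts in EV_Tm and 0 counts in each PBS_Tm library, and Fasl had 0 counts in each EV_Tm library against 3, 0 and 1 in PBS_Tm. The ligands of DR5 and of Fas were thus near or at the limit of detection in every library.

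Of 12 other death receptors and decoys, 9 were tested, 4 fell, 1 rose and 4 did not pass. Their median log2 fold change was -0.00. Tnfrsf12a, the receptor of TWEAK, was 1.46-fold lower, at 126 ± 2.72 CPM in EV_Tm and 184 ± 5.56 CPM in PBS_Tm (edgeR adjusted p = 1.38e-10). The TNF receptor gene Tnfrsf1a was the 1 that rose, 1.17-fold, to 104 ± 1.40 CPM in EV_Tm against 88.3 ± 1.79 CPM in PBS_Tm (edgeR adjusted p = 0.000186). The lymphotoxin receptor gene Ltbr also fell, as did Edar, which had 17, 33 and 11 counts in EV_Tm and 65, 89 and 103 counts in PBS_Tm. Tnfrsf23, a decoy receptor named after its values were seen, fell by 0.78 on the log2 scale, and its close copies Tnfrsf22 and Tnfrsf26 make its count uncertain.

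Of 19 adaptors, kinases and ubiquitin enzymes that act behind the receptors, 18 were tested, 6 fell, 2 rose and 10 did not pass. Cyld, a deubiquitinase that restrains NF-kB signalling, was 1.88-fold lower, at 182 ± 5.62 CPM in EV_Tm and 343 ± 18.3 CPM in PBS_Tm. Tab2, a partner of the kinase TAK1, and Faf1, a FAS-associated factor, were each 1.79-fold lower. In contrast, Traf1, an adaptor and NF-kB target, was 2.39-fold higher, at 25.2 ± 1.42 CPM in EV_Tm and 10.5 ± 0.528 CPM in PBS_Tm (SD, n = 3 each). By edgeR, adjusted p-values were 1.07e-14 for Cyld, 7.56e-15 for Tab2, 4.38e-13 for Faf1 and 2.29e-11 for Traf1. Fadd, the adaptor that joins the receptors to caspase-8, was named after its values were seen and did not pass, at 14.6 ± 0.229 CPM in EV_Tm and 14.3 ± 0.730 CPM in PBS_Tm (log2 fold change 0.03 ± 0.09, SE, edgeR adjusted p = 0.821).

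On the intrinsic side, 1 of 6 genes of the apoptosome and the PIDDosome passed. This was Cycs, which encodes cytochrome c and was 1.14-fold lower, at 95.2 ± 3.61 CPM in EV_Tm and 109 ± 9.17 CPM in PBS_Tm (edgeR adjusted p = 0.00522). Apaf1, the scaffold of the apoptosome, did not pass, with a log2 fold change of -0.09 ± 0.05, and neither did the PIDDosome genes Cradd, at -0.12 ± 0.13, and Pidd1, at -0.04 ± 0.07 (SE). Casp2 therefore passed where both genes of its platform did not, a difference between genes that was not itself tested.

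The further genes described from the caspase family and its partners were Casp1, Casp14, Casp4 and Casp8ap2, of which 2 had enough counts to be tested, 1 rose and 1 fell. Casp1, which activates inflammatory cytokines, and Casp14, a caspase of the skin, were at 0 counts in all libraries. Casp8ap2, which encodes the caspase-8 associated protein FLASH, rose 1.12-fold, to 65.9 ± 1.86 CPM in EV_Tm against 59.0 ± 1.03 CPM in PBS_Tm (SD, n = 3 each, edgeR adjusted p = 0.0162). Its adjusted p was 0.0722 without EV_Tm replicate 1, 0.0823 without EV_Tm replicate 2 and 0.0811 without PBS_Tm replicate 2 by edgeR, so this call was lost without any one of them. Casp4, an inflammatory caspase, was 3.19-fold lower from few reads, with 8, 9 and 18 counts in EV_Tm and 33, 40 and 41 counts in PBS_Tm (edgeR adjusted p = 0.00169).

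Of 8 genes for inhibitors of caspases and the antagonists of these inhibitors, 7 rose, Htra2 did not pass and none fell. Their median log2 fold change was 0.29. Among all genes tested, 22.6% rose and 24.7% fell. Birc6, a giant ubiquitin ligase that binds caspases, was 1.28-fold higher, at 505 ± 15.5 CPM in EV_Tm and 395.5 ± 28.2 CPM in PBS_Tm. Birc3, which encodes cIAP2, was 1.35-fold higher, at 55.7 ± 2.28 CPM in EV_Tm and 41.3 ± 0.812 CPM in PBS_Tm, and Birc2, which encodes cIAP1, was 1.18-fold higher. By edgeR, adjusted p-values were 3.59e-07 for Birc6, 1.47e-06 for Birc3 and 0.000109 for Birc2. The survivin gene Birc5 also rose, as did Xiap and Naip5, a gene with near copies whose count is uncertain. Diablo, the seventh that rose, encodes SMAC, which is, like the product of Htra2, an antagonist that frees caspases from their inhibitors.

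Of 13 genes for proteins that caspases cut, 5 rose, 6 fell and 2 did not pass, against 22.6% higher and 24.7% lower among all genes tested. The lamin genes moved apart: Lmnb1 was 1.55-fold higher, at 126.5 ± 4.16 CPM in EV_Tm and 81.5 ± 3.54 CPM in PBS_Tm, and Lmna 1.30-fold lower, at 189 ± 3.82 CPM in EV_Tm and 247 ± 15.7 CPM in PBS_Tm (SD, n = 3 each). Gsdmd, the pore-forming gasdermin, was 1.37-fold higher and the kinase gene Rock1 1.20-fold lower. Adjusted p-values by edgeR were 6.62e-11 for Lmnb1, 1.49e-07 for Lmna, 1.4e-07 for Gsdmd and 7.73e-05 for Rock1. These are levels of transcripts and say nothing of cleavage.

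Of 13 ER stress signals upstream of these genes, 12 were tested, 8 fell, 3 rose and Bcl2l11 did not pass, where 24.7% of all genes fell and 22.6% rose. The median log2 fold change of the 12 was -0.24. Ddit3, which encodes CHOP, was 7.49-fold lower, at 40.2 ± 1.13 CPM in EV_Tm and 301 ± 4.37 CPM in PBS_Tm (SD, n = 3 each, edgeR adjusted p = 1.01e-24). The CHOP target Trib3, which encodes a pseudokinase, was 4.44-fold lower and Atf4, the transcription factor above CHOP, 1.78-fold lower. Capns1, the small calpain subunit, was 1.26-fold higher. Set beside these, Tnfrsf10b, a known CHOP target, was 1.45-fold lower, and the ER chaperone gene Hspa5 10.5-fold lower. Whether the lower level of Ddit3 has a part in that of Tnfrsf10b was not tested.

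**Figure D5:**
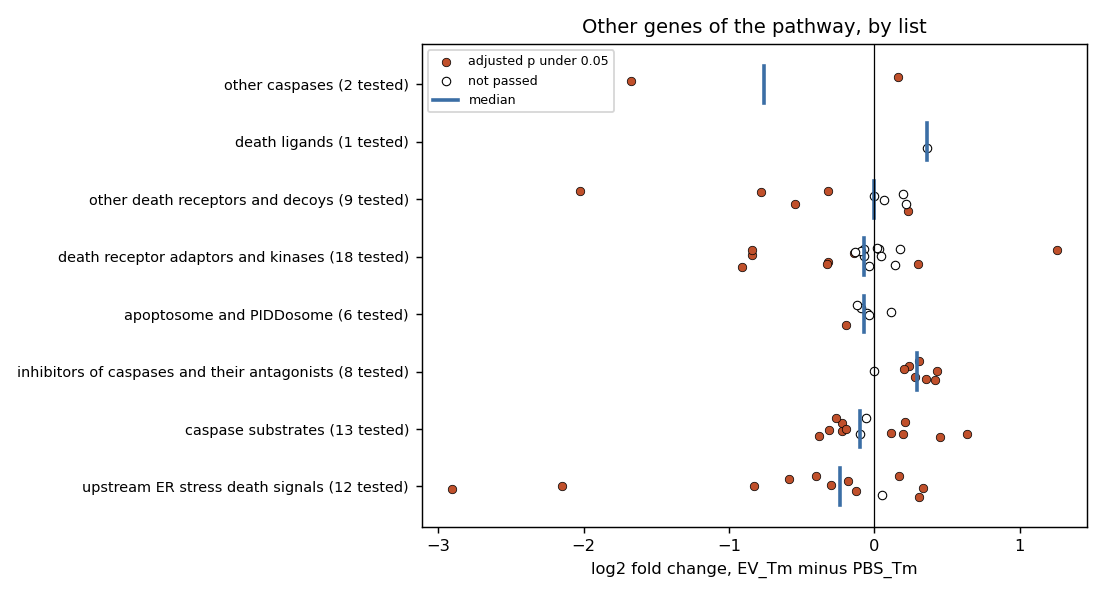
Log2 fold change, EV_Tm minus PBS_Tm, of each tested gene on the 8 pathway lists, 1 point per gene, filled where it passed, with the median of each list as a line. The genes on the list of caspase inhibitors and antagonists of these inhibitors lie above 0 except the antagonist Htra2. The ER stress signals reach from -2.91 for Ddit3 to 0.34 for Capns1.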

How the data were processed

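Adaptors were removed and reads aligned with HISAT2 2.2.1 by the authors, per the labels' protocols, and the submitters' processing notes name featureCounts 2.0.6 and build mm39. The authors deposited raw, unnormalised read counts for each gene and sample. Other deposited values are the start, end and length of each gene in bases. They match GENCODE M21 in start and end for 53499 of 54409 IDs (98.33%) and for 7 of the 8 genes (not Fas), so the printed coordinates, which are the deposited ones, are taken to be GRCm38. How strand and multimapped reads were handled is not given in the sources used here, which makes overlapping and duplicated genes uncertain.

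The comparison of EV_Tm with PBS_Tm used edgeR 4.0.16 (R 4.3.3; TMM factors, filterByExpr, two-sided quasi-likelihood F test, Benjamini-Hochberg adjustment over 16844 of 28789 genes with a count). Log2 fold changes are EV_Tm minus PBS_Tm, with an SE derived from the F statistic. The common coefficient of biological variation was 6.05%. Totals were 28654248 to 32550268 counts, so a floor of 3 counts is 0.0922 to 0.105 CPM. Replicates differed by more than sampling noise (mean chi-square per gene 3.59 to 7.22 within groups, 86.7 to 97.1 between) and all were kept. The pipeline was tested on simulated data, where 38.7% of 1.25-fold, 58.7% of 1.5-fold and 72.7% of 2-fold changes passed. Of the simulated calls, 6.27% were false. A gene that did not pass may thus have changed. The simulation changed far fewer genes than passed here, so its shares may not hold for these data.

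The genes and lists were chosen with earlier results of these data known. Named are all 8 genes, up to 4 tested genes per list by smallest p, genes that overlap the 8, the 3 nearest genes to the largest rise and fall (centred log2 CPM, prior count 2), and Ddit3, Trib3 and Hspa5. Other list genes were named with their values in view. A few genes are not reported here, and list counts leave them out. Alternatives were DESeq2 size factors, library size alone, no filter, 1 CPM in 3 libraries, DESeq2 1.42.0, limma-voom (limma 3.58.1), a replicate block, each library left out, a fold of 2, raw counts in the ratio, and transcript length, which was added after seeing the data.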

Additional observations from a re-analysis of the deposited data

How the results depend on the processing

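The 5 genes that passed did so, in the same directions, under both other normalizations, both other filters, DESeq2, limma-voom, the replicate block and without any one library. With a fold minimum of 2, 1006 of all genes and 0 of the 8 genes passed, also 0 with edgeR at an unadjusted p under 0.05, with DESeq2 and with limma-voom at that fold. Without each library in turn, the genes called numbered 7080 to 7708, against 7976. The log2 fold change of Casp12, which did not pass, ranged from -0.024 without EV_Tm replicate 1, where its sign turned, to 0.25 without EV_Tm replicate 3, and the cause was not tested. Of the 2 tested genes on the list of other caspases, 1 to 2 passed without each library. The mean Cflar to Casp8 ratio per length was 0.329 in EV_Tm and 0.688 in PBS_Tm with the longest coding transcript, an alternative chosen after seeing the data, which divides by other lengths. Raw counts gave the same difference of -1.06, since the lengths cancel, and leaving out libraries gave -1.13 to -0.99. Same-numbered libraries did not deviate together (correlations -0.0426, 0.0163 and -0.0141), and differently numbered ones gave -0.0288 to 0.0438. These values show no pairing by number, but with 3 libraries a group they cannot exclude one. With the replicate block 7737 genes and 5 of the 8 passed. Depth limits Fas, Tnfsf10 and Fasl, which had 0 or few counts.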
